A study of Mus musculus with 8 samples.

Results

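The genes *Coch*, *Pou3f4*, *Otos*, *Otor*, *Slc4a11*, *Car3*, *Emilin2*, *Tbx18* and *Cpxm2*, known from the fibrocytes of the spiral ligament and the spiral limbus, were followed in cochlear RNA of WT and *Opa1*+/- mice. They were taken by symbol from the count tables, where they make up 9 of 47628 named entries, and all 9 were among the 19366 genes tested. Their RNA was present in every cochlea. Per kilobase of annotated exon, *Coch* was the most abundant of them and *Emilin2* the least. In edgeR's quasi-likelihood test, 0 of the 9 differed between genotypes past an adjusted p of 0.05, a threshold that 0.0258% of all genes tested passed. The largest difference was that of *Otor*, whose mean was 41.0 CPM in WT mice against 28.9 CPM in mutants, and each of the 4 mutants lay below every WT mouse, as in 2.33% of all genes tested, but the difference did not pass that threshold. CPM relate the count of a gene to the total count on named genes, with library totals scaled by the TMM method.

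Whole cochleae without treatment were used, taken from 4 WT mice (WT_4, WT_5, WT_6 and WT_8) and from 4 heterozygous *Opa1*+/- mice (Het_2, Het_7, Het_484 and Het_491) at 21 days of age. *Opa1*+/- mice carry the recurrent human *OPA1* deletion delTTAG as a heterozygous knock-in, and WT mice were their littermates on the same mixed C57BL/6 J and 129 Sv/Pas background. The study used both sexes. A whole cochlea holds many cell types, so that a lower share of fibrocytes and less RNA in each fibrocyte cannot be told apart in these counts.

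Fibrocytes are the connective tissue cells of the lateral wall and of the limbus. Those of the spiral ligament are coupled by gap junctions, take up potassium from the perilymph and pass it on to the stria vascularis, and they lay down the matrix that anchors the basilar membrane. Several of their genes are genes of human deafness: changes in *COCH* cause a dominant progressive form with vestibular loss, changes in *POU3F4* an X-linked form, and changes in *SLC4A11* a corneal dystrophy that can come with hearing loss.

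Library totals on named genes were 15978051 to 20828030 counts, and the 9 genes had between 334 and 69375 counts in a mouse. *Opa1* itself, the check of the genotype labels, lay between 112 and 126 CPM in the WT mice and between 60.4 and 70.0 CPM in the *Opa1*+/- mice. Markers of blood and fat moved between libraries. The summed level of 7 erythroid markers was highest in WT_4 (21425 CPM) and Het_491 (25032 CPM), where the remaining WT mice had 7739 to 12300.0 CPM and the remaining mutants 15039.8 to 18431 CPM. The sum of 8 neutrophil and marrow markers was likewise highest in these mice, at 1375 and 1148 CPM, against 422 to 831 CPM in the other 6. Adipocyte markers (8 genes) summed to 59.0 to 772 CPM in WT and to 497 to 679.9 CPM in *Opa1*+/- mice. All 7 erythroid and all 8 adipocyte markers had a log2 fold change above 0, none of them past the adjusted threshold.

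Cochlear identity was seen in every library: 10 hair cell markers summed to 101 to 160.4 CPM in WT mice and 121 to 143 CPM in mutants, and 10 markers of the stria vascularis to 718 to 1403 and 931 to 1035 CPM. The fibrocyte genes together reached 3941, 5282, 5651 and 5350.3 CPM in WT_4, WT_5, WT_6 and WT_8. In Het_2, Het_7, Het_484 and Het_491 the same sum was 4446, 4749, 5527 and 4250.3 CPM. WT_4 and Het_491 had the lowest sums of the 8, and the ranges of the genotypes overlapped.

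**Figure D1:**
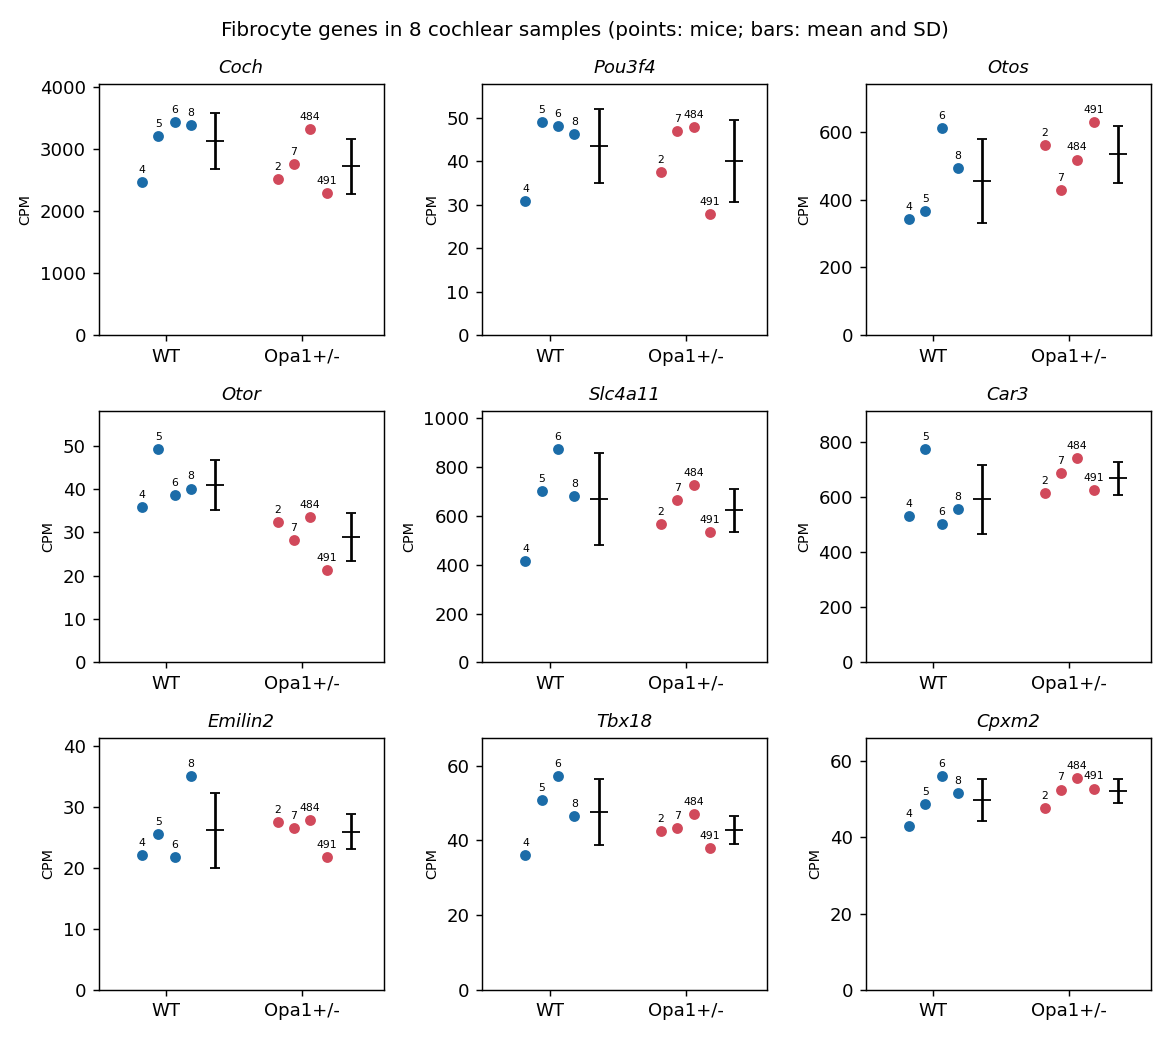
CPM (vertical axes, from 0) of the 9 fibrocyte genes in each cochlea, with the animal number above each point, WT in blue and *Opa1*+/- in red, and bars for the mean and SD of 4 mice. *Otor* is the 1 gene in which all *Opa1*+/- points (21.3 to 33.5 CPM) lie below all WT points (35.96 to 49.2 CPM), a separation found in 2.33% of all genes tested.

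Levels of different genes were compared as CPM per kilobase of annotated exon. The divisor was the union of all annotated exons of a gene, 2998 bases for *Coch* and 3082 for *Otos*. It can exceed the length of the transcript expressed, so that the order below holds for this divisor only. In WT mice *Coch* had 1046 ± 149 (SD, n = 4) CPM per kilobase, followed by *Car3* with 207, *Otos* with 147, *Slc4a11* with 134, *Otor* with 43.2, *Pou3f4* with 14.9, *Cpxm2* with 10.8, *Tbx18* with 10.1 and *Emilin2* with 4.74. On this measure *Coch* stood clear of all others, its lowest WT value being 828 and the highest of *Car3* 270.4 CPM per kilobase. *Car3*, *Otos* and *Slc4a11* followed each other with ranges that overlapped between neighbours. So did *Pou3f4*, *Cpxm2* and *Tbx18*. *Otor* lay apart from both of these groups, and *Emilin2* below the second. The order was the same in *Opa1*+/- mice, where *Coch* had 910.2 ± 148 and *Otor* 30.4 CPM per kilobase, and where *Car3* no longer overlapped *Otos* nor *Cpxm2* overlapped *Tbx18*.

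The genes of secreted proteins are *Coch*, *Otor*, *Otos*, *Emilin2* and *Cpxm2*. Promoter sequences are shown for *Coch*, *Otos* and *Otor*, since *Coch* led in level, *Otor* differed most between genotypes and *Otos* took the opposite direction. Each run is the 250 bases before the RefSeq start on GRCm38.p6, 5′ to 3′ on the strand of the gene, with a TATA box (TATAAA) in capitals where there is one. They lie at chr12:51593091-51593340 (*Coch*, plus strand), chr1:92648842-92649091 (*Otos*, minus strand) and chr2:143078143-143078392 (*Otor*, plus strand, where the RefSeq start lies upstream of the GENCODE start).
Coch: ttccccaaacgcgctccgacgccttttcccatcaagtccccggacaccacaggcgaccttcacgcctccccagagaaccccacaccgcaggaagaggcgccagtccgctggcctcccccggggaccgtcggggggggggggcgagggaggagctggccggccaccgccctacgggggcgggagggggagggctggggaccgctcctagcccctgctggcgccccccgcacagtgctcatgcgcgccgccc
Otos: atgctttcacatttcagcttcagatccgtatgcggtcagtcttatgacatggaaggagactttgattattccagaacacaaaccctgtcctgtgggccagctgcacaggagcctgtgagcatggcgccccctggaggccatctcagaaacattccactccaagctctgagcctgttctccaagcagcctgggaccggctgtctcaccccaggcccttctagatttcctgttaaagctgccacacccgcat
Otor: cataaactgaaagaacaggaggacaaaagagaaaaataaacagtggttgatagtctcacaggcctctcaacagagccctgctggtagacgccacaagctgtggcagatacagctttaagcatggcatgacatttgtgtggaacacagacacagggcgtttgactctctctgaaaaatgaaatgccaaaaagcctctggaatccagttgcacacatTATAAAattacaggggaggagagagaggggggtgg
The 3 differ in composition: 74.8% of the bases before *Coch* are G or C, with 24 CpG dinucleotides, against 54.0% and 5 before *Otos* and 46.0% and 2 before *Otor*. Over all 27025 promoters the median is 52.0% with 6 CpG.

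A RefSeq promoter was found for 7 of the 9 genes, the others being *Slc4a11* and *Car3*. Both strands were searched for 4 motifs. TATAAA was in 1 of the 7, 35 bases before the start of *Otor*, and in 13.0% of all promoters. CCAAT was in 2 of the 7, *Pou3f4* and *Tbx18*, and in 34.5% of all. The windows of *Pou3f4* and *Emilin2* overlap the genes themselves in the GENCODE annotation, so that they are not wholly upstream sequence. The POU octamer ATGCAAAT, the type of site read by factors such as *Pou3f4*, was in none of the 7 and in 1.62% of all promoters. The T-box site AGGTGTGA was in none of the 7 and in 1.14% of all. These counts describe the letters in the windows only.

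*Coch* encodes cochlin, the main non-collagen protein of the inner ear matrix. The gene lies on chromosome 12 from 51593341 to 51605771 (GRCm38, plus strand). CPM stood at 2482 in WT_4, 3217 in WT_5, 3443 in WT_6 and 3397 in WT_8. The mutants had 2516 CPM in Het_2, 2769 in Het_7, 3330.0 in Het_484 and 2301 in Het_491. The lowest value of each genotype came from the mouse with its highest erythroid and neutrophil marker sums, but Het_484, second among mutants for both sums (18431 and 831 CPM), had the most *Coch* of the mutants. The genotypes overlapped, and WT_4 was below 3 of the 4 mutants. The means were 3135 ± 446 and 2729 ± 444 CPM (SD, n = 4 per genotype). The log2 fold change was -0.20 ± 0.136 (SE), with an adjusted p of 0.794 in edgeR's quasi-likelihood test. The 95% interval of the change ran from -29.5% to 7.56%. Without WT_4 the log2 fold change was -0.30 (adjusted p 0.456 in the same test), without Het_484 -0.31 (adjusted p 0.876) and without Het_491 -0.13 (adjusted p 0.955). The part of the blood markers in the level of *Coch* was not tested.

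*Otor* encodes otoraplin, a small secreted protein of the melanoma inhibitory activity family with an SH3 domain, made by cochlear fibrocytes. It lies on chromosome 2 from 143078473 to 143081713 (plus strand). The WT cochleae held 35.96 (WT_4), 49.2 (WT_5), 38.7 (WT_6) and 40.1 CPM (WT_8). Among mutants, CPM were 32.3 in Het_2, 28.3 in Het_7, 33.5 in Het_484 and 21.3 in Het_491. The genotypes did not overlap, with WT_5 highest and Het_491 lowest. The lowest value of each genotype again came from the mouse with its highest erythroid sum, WT_4 (21425 CPM) and Het_491 (25032 CPM). Het_484, second among mutants for that sum (18431 CPM), had the most *Otor* of the mutants. The part of the blood markers in the level of *Otor* was not tested. All mutants lay below all WT mice in 452 of the 19366 genes tested (2.33%), and the genotypes were separate in either direction in 835 (4.31%). The WT mean was 41.0 ± 5.75 CPM and the mutant mean 28.9 ± 5.52 CPM (SD, n = 4 per genotype), a log2 fold change of -0.51 ± 0.145 (SE).

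The unadjusted p of *Otor* in edgeR's quasi-likelihood test was 0.00632, and the adjusted p was 0.722. With DESeq2's Wald test the adjusted p was 0.399. The change was -29.6%, with a 95% interval from -43.8% to -11.8%. An unadjusted p under 0.05 with a lower mutant mean was found for 623 genes (3.22%), and *Otor* was the 1 fibrocyte gene among them. Leaving out 1 mouse at a time, the log2 fold change lay between -0.59 (without Het_484) and -0.39 (without Het_491). Without WT_4 and Het_491 together, a choice made once the values were known, it was -0.45, with an adjusted p of 0.511 in edgeR's test. The mice that then remain do not overlap in erythroid markers, at 7739 to 12300.0 CPM in WT and 15039.8 to 18431 CPM in mutants, so that blood content and genotype cannot be told apart there.

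*Otos* encodes otospiralin, a small secreted protein of inner ear fibrocytes, and lies on chromosome 1 from 92644218 to 92648841 (minus strand). In WT_4, WT_5, WT_6 and WT_8 its CPM were 344, 367, 611 and 493. In Het_2, Het_7, Het_484 and Het_491 they were 561, 428, 518 and 628. Het_491, lowest for *Coch* and *Otor*, was highest for *Otos*, and the genotypes overlapped, with WT_6 the second highest of the 8. The means were 454 ± 123 and 534 ± 83.8 CPM (SD, n = 4 per genotype). The log2 fold change was 0.23 ± 0.186 (SE, adjusted p 0.827 in edgeR's test), with an interval of the change from -11.9% to 57.2%. Without WT_6 the log2 fold change was 0.41, and without WT_4 it was 0.12. Neither had an adjusted p under 0.05.

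*Emilin2*, an elastin microfibril glycoprotein also found in the basilar membrane, lies on chromosome 17 from 71252172 to 71311978 (minus strand). CPM stood at 22.1 in WT_4, 25.5 in WT_5, 21.8 in WT_6 and 35.0 in WT_8. The mutants had 27.6 CPM in Het_2, 26.6 in Het_7, 27.7 in Het_484 and 21.7 in Het_491. WT_8 stood above the other 7, which lay between 21.7 and 27.7 CPM in both genotypes. The means, 26.1 ± 6.15 and 25.9 ± 2.84 CPM (SD, n = 4 per genotype), gave a log2 fold change of -0.013 ± 0.153 (SE). The adjusted p in edgeR's test was 0.990 and the interval of the change -21.9% to 25.7%. Without WT_8 the sign turned, to a log2 fold change of 0.16, and without Het_491 it was 0.059.

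*Cpxm2*, a secreted carboxypeptidase-like protein, lies on chromosome 7 from 132032687 to 132154739 (minus strand). The WT cochleae held 42.9 (WT_4), 48.7 (WT_5), 56.0 (WT_6) and 51.7 CPM (WT_8). Among mutants, CPM were 47.7 in Het_2, 52.6 in Het_7, 55.6 in Het_484 and 52.8 in Het_491. It was the steadiest of the 9 genes over the 8 mice, with a coefficient of variation of 8.57%, against 15.1% to 23.8% for the others. The means were 49.8 ± 5.50 and 52.2 ± 3.27 CPM (SD, n = 4 per genotype). The log2 fold change was 0.066 ± 0.0852 (SE, adjusted p 0.904 in edgeR's test), with an interval of the change from -8.30% to 19.5%. Leaving out 1 mouse at a time, it ranged from 0.0022 (without WT_4) to 0.13 (without WT_6), and it was -0.0085 without WT_4 and Het_491 together. An annotated antisense gene, *Gm15677*, shares exon sequence with *Cpxm2* and had 1 to 5 counts in a mouse.

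The 2 genes of ion and acid-base handling were abundant. *Slc4a11*, a membrane transporter of the bicarbonate transporter family, lies on chromosome 2 from 130684113 to 130697519 (minus strand). In WT_4, WT_5, WT_6 and WT_8 its CPM were 416, 700.2, 872 and 682. In Het_2, Het_7, Het_484 and Het_491 they were 566, 665, 725 and 533. Both the lowest and the highest value were from WT mice, WT_4 and WT_6, and the mutants lay between them. The means were 667 ± 188 and 622 ± 88.4 CPM (SD, n = 4 per genotype). The log2 fold change was -0.10 ± 0.198 (SE), with an adjusted p of 0.939 in edgeR's test and an interval of the change from -31.5% to 26.8%. It was 0.054 without WT_6, so that 1 mouse set the sign, and -0.27 without WT_4.

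*Car3* encodes the cytosolic carbonic anhydrase 3, which fibrocytes share with skeletal muscle and fat cells. It lies on chromosome 3 from 14863512 to 14872523 (plus strand). CPM stood at 531 in WT_4, 775 in WT_5, 504 in WT_6 and 559 in WT_8. The mutants had 615 CPM in Het_2, 689 in Het_7, 743 in Het_484 and 627 in Het_491. WT_5 was the highest of the 8 and the other WT mice were the 3 lowest. The means were 592 ± 124 and 668 ± 59.5 CPM (SD, n = 4 per genotype), a log2 fold change of 0.17 ± 0.134 (SE). The adjusted p in edgeR's test was 0.824 and the interval of the change -8.41% to 39.1%. Without WT_5 the log2 fold change was 0.33, with an unadjusted p of 0.0045 and an adjusted p of 0.801 in edgeR's test. Of the fits that left out 1 mouse, the lowest value, 0.10, was found without WT_6.

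Adipocyte marker sums were highest in WT_5 (772 CPM), where *Car3* was highest, and lowest in WT_6 (59.0 CPM), where *Car3* was lowest, with 130.3 CPM in WT_8 and 324 CPM in WT_4. The mutants did not follow this order: the sums were 497 CPM in Het_484, which had the most *Car3* among them, 561 CPM in Het_7, 679.9 CPM in Het_491 and 660.3 CPM in Het_2, which had the least. The most abundant of these markers, the fatty acid binding protein *Fabp4*, averaged 209.6 ± 232 CPM over WT mice and 420.1 ± 81.8 CPM over mutants (SD, n = 4 per genotype). The 11 skeletal muscle markers summed to 247 to 2245 CPM in WT mice and 42.6 to 1139 CPM in mutants, with the maximum in WT_6, where *Car3* was lowest. No marker of either list was at 0 in all mice. The part of fat in the level of *Car3* was not tested.

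**Figure D2:**
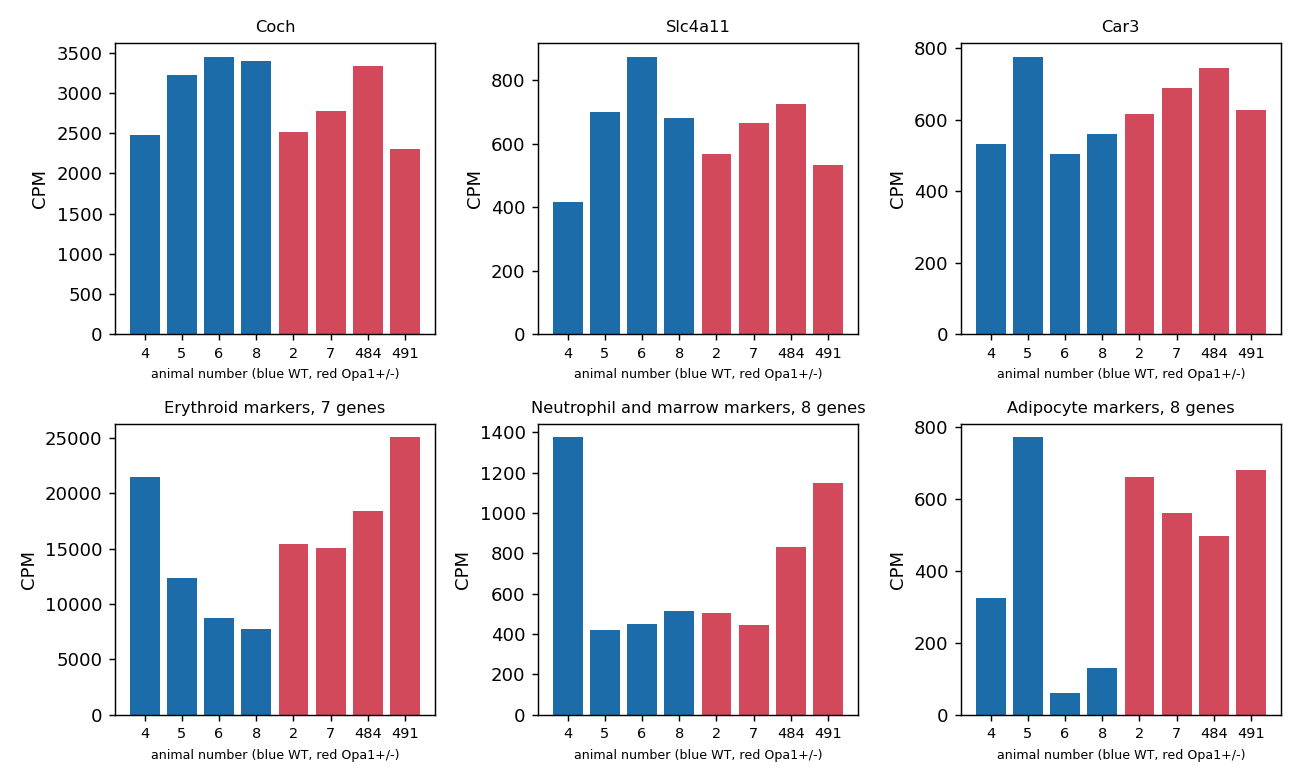
CPM of *Coch*, *Slc4a11* and *Car3* (upper row) and summed CPM of erythroid, neutrophil and marrow, and adipocyte markers (lower row) in each mouse, WT bars in blue and *Opa1*+/- bars in red, all axes from 0. WT_4 and Het_491 are the lowest for *Coch* and *Slc4a11* and the highest for erythroid and neutrophil markers, Het_484 is high for *Coch* and for both of these marker sums, and WT_5 is the highest for *Car3* and for adipocyte markers.

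*Pou3f4* and *Tbx18* encode transcription factors that the otic mesenchyme needs to form fibrocytes. *Pou3f4*, a POU domain factor, lies on chromosome X from 110814280 to 110817207 (plus strand). The WT cochleae held 30.9 (WT_4), 48.97 (WT_5), 48.0 (WT_6) and 46.3 CPM (WT_8). Among mutants, CPM were 37.6 in Het_2, 47.0 in Het_7, 47.8 in Het_484 and 27.8 in Het_491. WT_4 lay far below the other 3 WT mice, and Het_491 lowest of all. The means were 43.6 ± 8.49 and 40.03 ± 9.39 CPM (SD, n = 4 per genotype). The log2 fold change was -0.12 ± 0.190 (SE, adjusted p 0.920 in edgeR's test), with an interval of the change from -31.6% to 23.5%. Without Het_491 it was 0.014, without WT_4 -0.25 and without both -0.12.

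*Tbx18*, a T-box factor, lies on chromosome 9 from 87702800 to 87731260 (minus strand). In WT_4, WT_5, WT_6 and WT_8 its CPM were 36.02, 50.9, 57.2 and 46.6. In Het_2, Het_7, Het_484 and Het_491 they were 42.6, 43.4, 47.1 and 38.0. WT_4 was again lowest and WT_6 highest, with all mutants between them. The means were 47.7 ± 8.90 and 42.8 ± 3.75 CPM (SD, n = 4 per genotype). The log2 fold change was -0.16 ± 0.129 (SE), the adjusted p 0.834 in edgeR's test and the interval of the change -26.6% to 9.71%. Single mice moved the log2 fold change, to -0.27 without WT_4 (unadjusted p 0.0175 and adjusted p 0.413 in edgeR's test) and to -0.058 without WT_6. An exon of *Tbx18* overlaps *D030062O11Rik* on the other strand, which had 0 to 6 counts in a mouse.

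Across the whole table, 5 of 19366 genes (0.0258%) passed an adjusted p of 0.05 with edgeR and 23 (0.119%) with DESeq2, and 0 of the 9 fibrocyte genes did with either. At an unadjusted p under 0.05 in edgeR's test there was 1 fibrocyte gene, *Otor*, beside 1302 of all genes (6.72%). Of the 9, 6 had a log2 fold change below 0 and 3 above, where 49.9% of all genes tested were below 0. The median log2 fold change was -0.10, against 3.95e-04 over all genes. The sign of the median turned without Het_491 (0.014), and without WT_4 it was -0.25. A share of 6 in 9 and a median of this size, from genes that vary together between mice, were read as a description only.

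**Figure D3:**
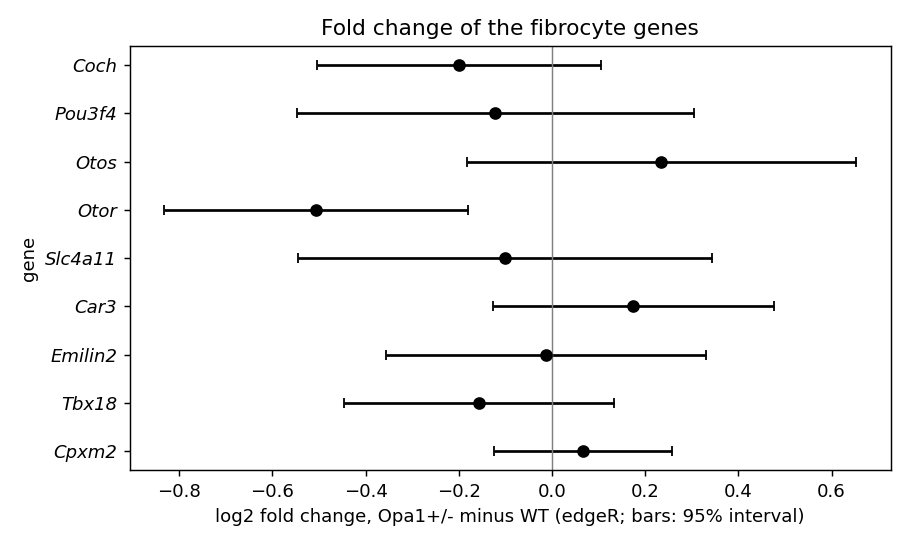
Log2 fold change of each fibrocyte gene, *Opa1*+/- minus WT (horizontal axis), as points with 95% intervals from edgeR's fit over 4 mice of each genotype. The interval of *Otor* lies below 0 before adjustment over all genes, and the other 8 include 0.

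The share of *Coch* in the summed CPM of the 9 genes was also computed, a measure chosen after the values were seen and given with no test. It was 63.0%, 60.9%, 60.9% and 63.5% in WT_4, WT_5, WT_6 and WT_8. In Het_2, Het_7, Het_484 and Het_491 it was 56.6%, 58.3%, 60.2% and 54.1%. The genotypes did not overlap, with less than 1 percentage point between Het_484 and the lower WT mice. They overlapped in the CPM of *Coch* itself, and in the ratios to *Coch* of *Otor*, *Otos* and *Pou3f4*, which were also computed. Among single genes tested, 4.31% had separate genotypes in either direction, and how often measures of this kind separate was not computed. Het_491, with the lowest share, had the most *Otos*.

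Coefficients of variation of the 9 genes over the 8 mice were 8.57% to 23.8%, at percentiles 30.2 (*Cpxm2*) to 78.9 (*Otor*) of all genes tested. The highest mouse exceeded the lowest by 1.31 times for *Cpxm2* and by 2.31 times for *Otor*. WT_4 was the lowest of the 8 for 4 genes and among the lowest 2 for 7, and Het_491 was the lowest for 4 and among the lowest 2 for 6. Low values in WT_4 were not particular to these genes. The same mouse was also the lowest of the 8 in the summed markers of the stria vascularis (718 CPM) and of hair cells (101 CPM), and in the sums of the fibrocyte ion transport (4684 CPM) and otic mesenchyme lists (368 CPM). WT_6, the highest for *Slc4a11*, *Tbx18*, *Coch* and *Cpxm2*, was the highest in all 4 of these sums.

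Correlations of log2 CPM over the 8 mice were computed for all 36 pairs of the genes, with exact two-sided permutation tests adjusted over the 36 by the Benjamini-Hochberg method. Of the 36, 31 were positive, and 6 had an adjusted p under 0.05. These 6 are the pairs among *Coch*, *Pou3f4*, *Slc4a11* and *Tbx18*. The closest pair was *Slc4a11* and *Tbx18*, with Pearson's r 0.945 (exact permutation p 0.000273, adjusted 0.00982) and Spearman's rho 0.976 (exact permutation p 0.000397, adjusted 0.0143). In this pair r was 0.975 after centring within genotypes, and 0.881 without WT_4 and WT_6, the 2 farthest from the median. Of the other genes tested, 0.176% had an r with *Slc4a11* at least as high. The share with an r at least as high to the first gene of the pair was 0.730% for *Coch* and *Pou3f4*, 0.989% for *Coch* and *Tbx18*, 1.69% for *Coch* and *Slc4a11*, and 1.64% both for *Pou3f4* and *Tbx18* and for *Pou3f4* and *Slc4a11*.

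*Coch* and *Pou3f4* had r 0.887 (exact permutation p 0.00179, adjusted 0.0321) and rho 0.762 (exact permutation p 0.0368, adjusted 0.221). *Coch* and *Tbx18* had r 0.872 (exact permutation p 0.00350, adjusted 0.0339) and rho 0.881 (exact permutation p 0.00724, adjusted 0.0521). For *Coch* and *Slc4a11* r was 0.835 (exact permutation p 0.00456, adjusted 0.0339) and rho 0.905 (exact permutation p 0.00456, adjusted 0.0521). Centred within genotypes, these 3 r values were 0.909, 0.856 and 0.893, of like size with the genotype means removed.

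*Pou3f4* had r 0.846 with both *Tbx18* (exact permutation p 0.00471, adjusted 0.0339) and *Slc4a11* (exact permutation p 0.00672, adjusted 0.0403). Spearman's rho was 0.929 (exact permutation p 0.00223, adjusted 0.0402) and 0.881 (exact permutation p 0.00724, adjusted 0.0521). The pairs with *Coch* or *Pou3f4* rested in part on WT_4 and Het_491, the mice farthest from the median. Without these mice, r was 0.792 for *Coch* and *Pou3f4*, 0.753 for *Coch* and *Tbx18*, 0.816 for *Coch* and *Slc4a11*, 0.598 for *Pou3f4* and *Tbx18*, and 0.761 for *Pou3f4* and *Slc4a11*. By exact permutation over these 6 mice, p was 0.0222 for *Coch* and *Slc4a11* and 0.0639 to 0.189 for the other 4 of these pairs. Leaving out 1 mouse at a time, 6 pairs had an adjusted p under 0.05 without Het_491, 0 without WT_8, and 1 without any 1 of the other 6 mice.

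Among the other pairs none passed the adjusted threshold. The nearest was *Slc4a11* and *Cpxm2*, with r 0.810 (exact permutation p 0.0176, adjusted 0.0906) and rho 0.667 (exact permutation p 0.0831). *Coch* and *Otos* had r 0.0036 (exact permutation p 0.993) and rho 0.048 (exact permutation p 0.935), and the lowest r of all pairs, that of *Otor* and *Otos*, was -0.50. The blood and fat markers, and the sums of other cochlear cell types that were lowest in WT_4 and highest in WT_6, vary between the same 8 mice. Their part in the correlations was not tested.

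**Figure D4:**
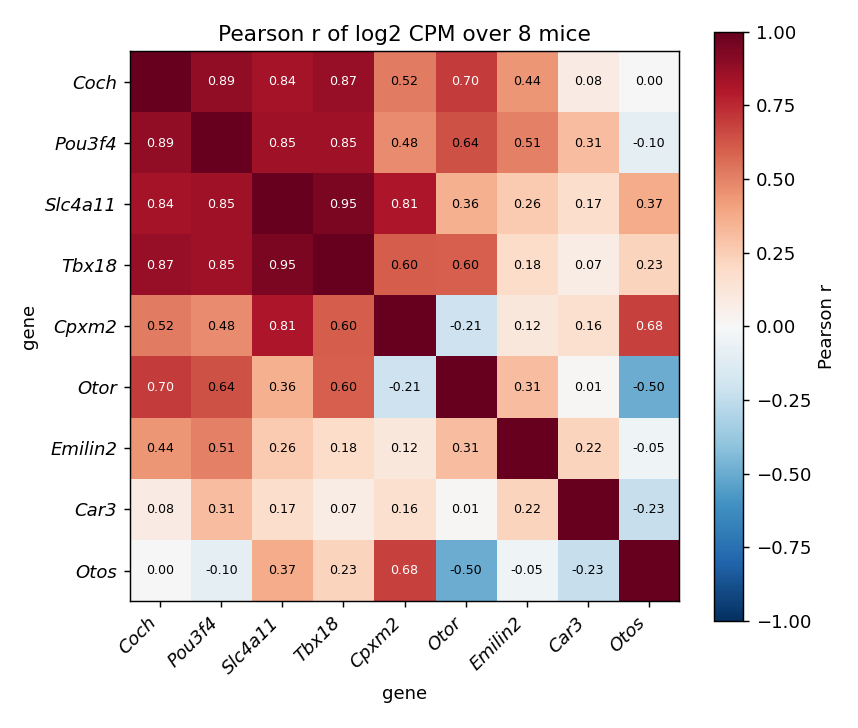
Pearson's r of log2 CPM over 8 mice for each pair of the 9 genes, on a colour scale from -1 to 1 with r printed in each cell. *Coch*, *Pou3f4*, *Slc4a11* and *Tbx18* form a block with r of 0.835 to 0.945. Its 6 pairs had an adjusted p under 0.05 by exact permutation, and no pair with another of the 9 genes did. Without any 1 mouse other than Het_491, 0 or 1 pairs passed.

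**Figure D5:**
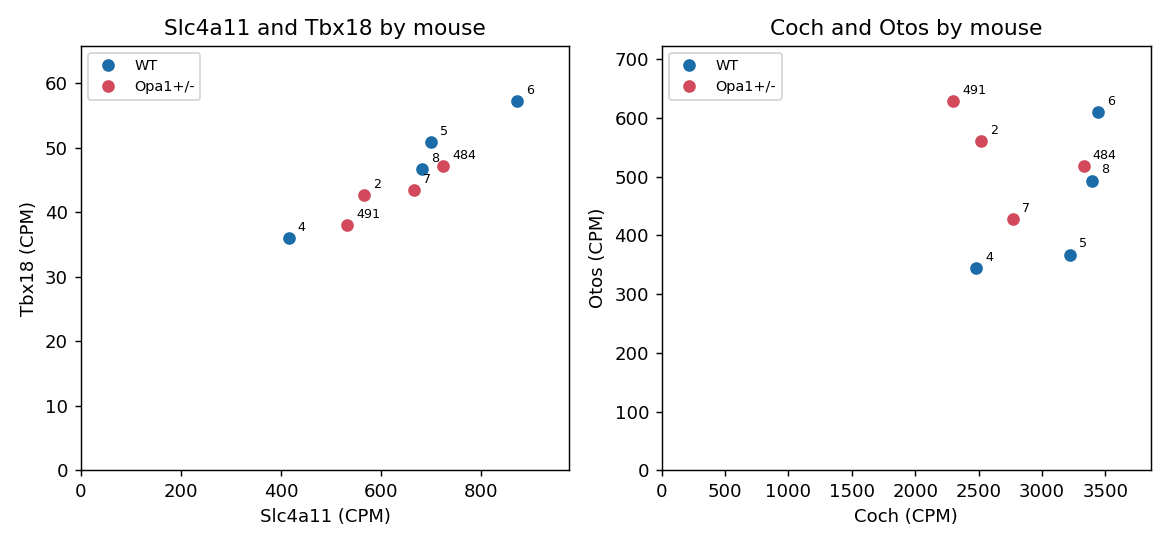
CPM of *Tbx18* against *Slc4a11* (left) and of *Otos* against *Coch* (right) in each mouse, WT in blue and *Opa1*+/- in red, with animal numbers and axes from 0. The left pair lies near a line in both genotypes (r 0.945), and the right pair shows none (r 0.0036), with Het_491 at the low end of *Coch* and the high end of *Otos*.

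Outside the 9 genes, likeness was measured as Pearson's r over the 8 mice among 19322 other gene symbols tested. The genes closest to the mean of the 9, each standardized on log2 CPM, were *Znfx1* (r 0.980), *Tesk2* (r 0.978), *Foxf2* (r 0.975), *Hif1a* (r 0.973) and *Myo10* (r 0.971). *Foxf2* is a forkhead factor of mesenchyme, and *Hif1a* is the oxygen-regulated subunit of hypoxia-inducible factor 1. Closest to *Coch* alone were *Arhgef26* (r 0.982), *Fmnl2* (r 0.981) and *Osbpl6* (r 0.973). These are the highest of many values and were not tested.

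Further genes of the same cells were read from 3 lists, of which 0 of 40 genes passed the adjusted threshold with edgeR and 2, *Slc4a7* and *Epha4*, had an unadjusted p under 0.05 there, where 6.72% of all genes tested did. Ion transport and gap junction genes of fibrocytes, such as the connexins *Gjb2* and *Gjb6* and the cotransporter *Slc12a2*, numbered 12, of which 10 had a log2 fold change below 0 (median -0.10). Lists of neighbouring cell types leaned as far: 9 of 10 stria vascularis markers (median -0.16) and 6 of 7 meningeal markers (median -0.14) were below 0. The ion transport and gap junction genes summed to between 4684 and 6578 CPM in WT and between 4978 and 5302 CPM in *Opa1*+/- mice. The lowest p was that of *Slc4a7*, a sodium bicarbonate cotransporter, at 14.8 ± 1.14 CPM for WT and 12.2 ± 0.648 CPM for *Opa1*+/- mice (SD, n = 4 per genotype). Its log2 fold change was -0.28 ± 0.0865 (SE), and in edgeR's test the unadjusted p was 0.00958 and the adjusted p 0.722. All 4 mutants lay below all WT mice, as in 2.33% of all genes tested. Next came the water channel *Aqp1* with 128 ± 12.9 and 141.6 ± 8.55 CPM (SD, n = 4 per genotype, adjusted p 0.766 in edgeR's test).

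The 11 genes of otic mesenchyme transcription and signalling had 7 log2 fold changes below 0 and 4 above, with a median of -0.036. Their sums were 368 to 512 CPM in WT mice and 412 to 439 CPM in mutants. *Epha4*, an ephrin receptor of the otic mesenchyme, averaged 31.3 ± 3.16 CPM for WT and 27.6 ± 0.954 CPM for mutants (SD, n = 4 per genotype), with overlapping genotypes and an adjusted p of 0.728 in edgeR's test. The mesenchymal factor *Twist2* was low, with 2.33 ± 0.387 and 1.94 ± 0.246 CPM (SD, n = 4 per genotype).

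Fibrous matrix genes of connective tissue went the other way in number. Of 17 genes, 12 had a log2 fold change above 0 and 5 below, with a median of 0.048. Their sums of 2852 to 3335 CPM for WT and 2832 to 3262 CPM for mutants overlapped. *Emilin1*, the relative of *Emilin2*, had 19.8 ± 1.31 and 21.9 ± 1.92 CPM (SD, n = 4 per genotype, adjusted p 0.763 in edgeR's test), and the fibrillin gene *Fbn1* 47.3 ± 2.17 and 49.4 ± 4.33 CPM (SD, n = 4 per genotype, adjusted p 0.888 in edgeR's test).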

How the data were processed

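The authors prepared CORALL libraries from cochlear RNA, sequenced them as paired reads of 80 nucleotides, aligned them to GRCm38 using STAR, with molecular identifiers to correct for amplification. The authors deposited 1 table of raw, unnormalized counts by gene symbol for each mouse. The counting program and its use of strand are not given in the sources used here. Entries with a number in place of a symbol (15, holding 0.112% to 0.124% of the counts) were left out, and 47628 named entries gave the library sizes.

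Genes with a mean count over 10 after DESeq2 size factors were tested, 19366 in all, with TMM factors and the quasi-likelihood test of edgeR 4.0.16 and Benjamini-Hochberg adjustment over all of them. Standard errors are the log2 fold change over the square root of F, and 95% intervals use the test's own degrees of freedom (9.48). CPM were scaled by TMM and are given with the SD over 4 mice. The p-values of edgeR's test set a difference against the spread between these mice, estimated with the help of all genes tested. Correlations used log2 CPM with a prior count of 2. The steps were tested on simulated data.

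The 9 genes, the other lists and the tests were chosen with earlier results of these data known. The text names all 9, the 2 genes of lowest p in the 3 further fibrocyte and matrix lists, the 5 genes nearest the mean of the 9, the 3 nearest *Coch*, and the 2 markers of highest CPM in each other list. Lists of other cell types were skeletal muscle, adipocyte, cartilage, bone, macrophage, neutrophil and marrow, erythroid, mural, meningeal, stria vascularis, hair cell and spiral ganglion neuron markers. Positions are from GENCODE vM21 and promoters from RefSeq, both on GRCm38. Alternatives were DESeq2 1.42.0 and its size factors, total counts alone, 2 other filters, voom with sample weights in limma 3.58.1, robust estimation, a threshold of 0.1, each mouse left out in turn and Het_484 and Het_491 left out together. WT_4 was left out with Het_491, and with Het_484 and Het_491, once the values were known. R 4.3.3, Python 3.11.15, scipy 1.17.1 and matplotlib 3.10.9 were used.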

Additional observations from a re-analysis of the deposited data

Results flagged for a closer look

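*Pou3f4* in WT_4 lay at 30.9 CPM, far from the other 3 WT mice at 46.3 to 48.97 CPM. Its gap to the nearest of them was 0.853 of the whole WT range, above the critical value of Dixon's test for 4 samples at the 95% level. The 9 genes were looked at in both genotypes, 18 groups in all, of which chance flags about 1 in 20. The same mouse had 21425 CPM of erythroid and 1375 CPM of neutrophil and marrow markers, and their part in the value was not tested.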

How the results depend on the processing

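The 9 fibrocyte genes and the 40 genes of the 3 further lists had 0 calls in the 19 alternatives tried. The number of calls over all genes, 5 with edgeR, was 12 without a filter, 23 with DESeq2, 10 with voom, 10 with robust estimation and 11 at a threshold of 0.1. It was 0 without Het_484 and Het_491, 0 without WT_4 and both of these, 0 without WT_4 and Het_491, and 0 to 9 with each mouse left out in turn. The median log2 fold change of the 9 genes ranged from -0.25 (without WT_4) to 0.014 (without Het_491, a turn of sign) over 18 alternatives, the range that leaving out 1 mouse also gave. *Otor* stayed between -0.59 and -0.39 (log2) with an adjusted p of at least 0.383, *Coch* between -0.35 and -0.13, *Tbx18* between -0.27 and -0.058, *Otos* between 0.0084 and 0.41 and *Car3* between 0.084 and 0.33, none with a change of sign. *Emilin2* lay between -0.090 and 0.16. Signs turned for 4 genes (log2 fold changes): *Slc4a11* without WT_6 (0.054), *Emilin2* without WT_8 (0.16), without Het_491 (0.059) and without Het_484 and Het_491 (0.046), *Pou3f4* without Het_491 (0.014), and *Cpxm2* without WT_4 and Het_484 and Het_491 (-0.061) or without WT_4 and Het_491 (-0.0085). The number of correlated pairs, 6, was 4 with total counts alone, 0 to 6 with each mouse left out in turn, and 0 without the 2 mice farthest from the median, where 6 mice remain. No paired analysis was possible because the labels give an animal number and no litter. With 4 mice a genotype, the 95% intervals of 8 of the 9 genes include 0 and reach at most from -31.6% to 57.2%.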

Other observations

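Of the other cell type lists, cartilage markers (7 listed, 5 tested) summed to 111 to 141 CPM in WT and 104 to 145 CPM in *Opa1*+/- mice. Bone markers (8 genes) reached 521 to 585 and 467 to 644 CPM, and macrophage markers (9 genes) 122 to 204 and 144 to 188 CPM. Mural cell markers (8 genes) reached 721 to 1203 and 576 to 1491 CPM, meningeal markers (7 genes) 302 to 483 and 311 to 364 CPM, and spiral ganglion neuron markers (10 genes) 5207 to 6374 and 5442 to 6290.3 CPM. The ranges of the genotypes overlapped in each of these lists, and 0 of their genes passed an adjusted p of 0.05 in edgeR's test.

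The markers with the most counts in each list were *Col2a1* and *Comp* for cartilage, *Bglap* and *Ibsp* for bone, *Csf1r* and *C1qb* for macrophages, *Acta2* and *Myh11* for mural cells, *Slc13a4* and *Slc47a1* for meninges, *Nefh* and *Nefl* for spiral ganglion neurons, *Atp1b2* and *Dct* for the stria vascularis, *Otof* and *Myo7a* for hair cells, *Hba-a1* and *Hba-a2* for erythroid cells, *S100a9* and *Ngp* for neutrophils and marrow, *Fabp4* and *Adipoq* for adipocytes, and *Myh1* and *Myh4* for skeletal muscle. *Hba-a1* and *Hba-a2* are near-identical copies, and their separate counts are uncertain.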
